A study of Mus musculus with 14 samples.

Results

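Cadherins and protocadherins were followed here in mouse neural cultures that had received a pulse of the Hedgehog transcription factor GLI1. The set was a list of 36 genes of the cadherin superfamily, given by symbol and matched through Entrez identifiers. The epithelial gene Cdh1 and the endothelial gene Cdh5 were left out of it. The authors' deposited tables held 26 of the 36 at day 5 (D5), among 15108 genes, and 31 at day 10 (D10), among 15744 genes. Cdh8, Cdh12, Cdh18, Cdh23 and Pcdh15 were listed at D10 only. Cdh9, Cdh15, Pcdh20, Fat2 and Dchs2 were in neither table, and how genes were filtered before deposit is not stated.

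The cells were GLI1-FTA mouse embryonic stem cells in the A2Lox.cre background, which takes a transgene under doxycycline control at a prepared site, and polyadenylated RNA was sequenced from 14 libraries. GLI1 OE samples had 500 ng/ml doxycycline for 48 h, from day 3 to day 5, and were harvested at D5 as neural progenitor cells (4 samples) or were washed and carried on to D10 as immature neurons (3 samples). Untreated control samples of the same line were harvested at D5 (4 samples) and D10 (3 samples). Every group carried the transgene and the controls had no doxycycline, so the drug and GLI1 cannot be told apart. The labels do not say whether replicates were separate cultures or whether the line is 1 clone, so the p-values measure only the spread between these samples, which may be technical. The sources hold 1 value per gene and day, with no value per library, so the depth is unknown and the spread over samples is seen only through the authors' p-values.

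Cadherins are membrane proteins whose extracellular repeats bind calcium and join like cells to like. Classical cadherins (type I and type II) hold the catenins inside the cell and so tie neighbouring cells' actin together. The delta protocadherins are adhesion and sorting molecules that are strongly patterned in the nervous system. The giant Celsr, Fat and Dachsous cadherins carry planar polarity and growth signals between neighbouring cells. In the neural tube, the mix of cadherins differs between progenitor domains and between pools of neurons, and helps to sort them.

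For Gli1 the authors' deposited tables gave a log2 fold change of 4.79 at D5 (adjusted p = 1.12e-81) and of 0.57 at D10 (adjusted p = 0.780), without telling the transgene and the endogenous gene apart. All 6 neural progenitor markers checked (Sox1, Sox2, Sox3, Pax6, Nes and Fabp7) and all 6 neuron markers were listed on both days. Markers of other cells were present too: the 6 endoderm markers summed to 293 CPM (read counts scaled to a common library total) in induced and 401 CPM in control cells at D5, and to 1297 CPM in induced and 1351 CPM in control cells at D10. These group levels, called implied CPM below, were worked out here from the average level and the fold change in the authors' deposited tables and carry no spread over samples.

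The first comparison asks which cadherins and protocadherins responded while GLI1 was induced. Of the 26 listed at D5, 10 changed at an adjusted p under 0.05 in the authors' deposited table, 5 higher and 5 lower in induced cells. That is 38.5% of the listed set, beside 4.44% of all genes in the table, of which 2.34% were higher and 2.1% lower. The set was chosen with earlier results of these data known, so its share is no independent count. Of the 26, 11 have over 10 kb of exon, a class in which 8.93% of all genes were called. The higher genes were Celsr1, Cdh4, Celsr2, Fat4 and Cdh20, and the lower genes were Pcdh10, Pcdh9, Cdh6, Pcdh7 and Cdh7. The median log2 fold change of the 26 was 0.12, beside 0.0015 for all genes. The protocadherin calls were all falls, and the calls among Celsr, Fat and Dachsous genes were all rises.

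**Figure D1:**
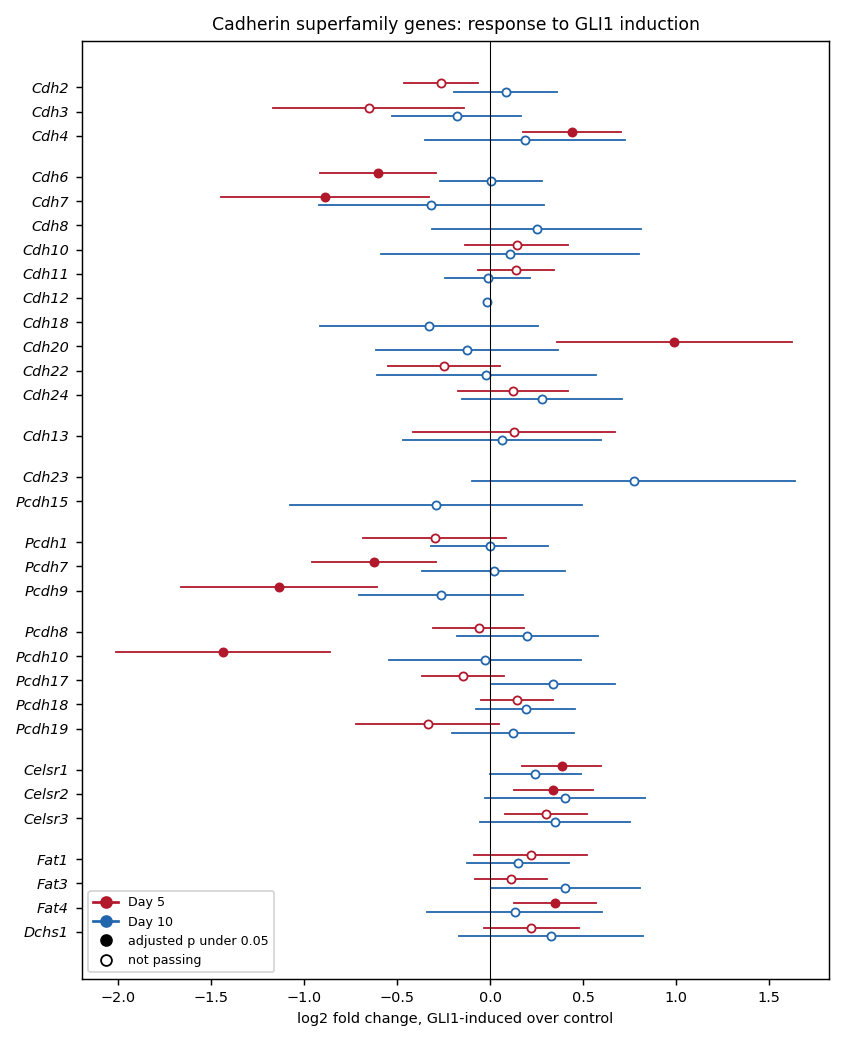
Log2 fold change (GLI1-induced over control, horizontal axis) of each listed cadherin superfamily gene, in family blocks from type I cadherins at the top to Fat and Dachsous genes at the bottom, at D5 (red) and D10 (blue). Lines are 95% intervals from the implied SE, and filled points pass an adjusted p under 0.05, which 10 genes do at D5 and 0 at D10.

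Delta protocadherins, which lack the catenin-binding tail of classical cadherins, gave the largest falls. Pcdh10, an adhesion molecule of growing axons that promotes WAVE-dependent actin assembly, had 1.21 implied CPM in induced cells, against 3.29 implied CPM in control cells. In the authors' deposited table its log2 fold change was -1.44 (adjusted p = 7.31e-05) and its standard error, implied by that p-value (implied SE), was 0.29, a 2.71-fold lower level. It was the 26th lowest of the 15108 fold changes in the authors' deposited table, and 154 bases of its exons overlap an antisense gene. Pcdh9, expressed in many young neurons, had 1.22 implied CPM in induced cells and 2.68 implied CPM in control cells, and in the authors' deposited table it stood at -1.14 on the log2 scale (adjusted p = 0.00120, implied SE 0.27). Pcdh7 (NF-protocadherin in Xenopus) had 10.7 implied CPM in induced cells and 16.5 implied CPM in control cells. Its log2 fold change in the authors' deposited table was -0.63 (adjusted p = 0.00914, implied SE 0.17). The other 5 listed protocadherins did not pass. In the authors' deposited table, Pcdh19, the X-linked gene of a female-limited epilepsy in humans, stood at -0.34, Pcdh1 at -0.30, Pcdh17 at -0.15, Pcdh8 (paraxial protocadherin, PAPC) at -0.062 and Pcdh18 at 0.14. All 3 delta-1 genes of the set (Pcdh1, Pcdh7 and Pcdh9) and 4 of its 5 delta-2 genes were thus below 0, with medians of -0.63 and -0.15. Over all genes, 7473 of 15108 were below 0. Neuron markers were mixed: in the authors' deposited table Tubb3 (-0.41) and Stmn2 (-0.39) were lower and passed, while Map2 (-0.28), Dcx (-0.0026), Elavl3 (0.054) and Rbfox3 (0.53) did not pass. The 6 summed to 603 implied CPM in induced and 706 implied CPM in control cells at D5. In bulk samples fewer cells of a type and less RNA per cell cannot be told apart, and the part of other cells in these falls was not tested. Endoderm markers (293 in induced and 401 implied CPM in control cells) and mesenchyme markers (73.8 in induced and 120 implied CPM in control cells) were lower in sum. By the authors' deposited table Gata4 (-0.78) and Gata6 (-0.67) passed, while Sox17 (-0.65), Krt8 (-0.35), Krt18 (-0.32) and Afp (0.86) did not. Krt8 and Krt18 had 103 and 87.9 implied CPM in induced cells, and 132 and 110 in control cells. Among mesenchyme markers Pdgfra (-0.81) passed, with 59.3 implied CPM in induced and 104 in control cells. Col1a1 (-0.47), Prrx1 (-0.13) and Twist1 (0.014) did not pass. The 4 pluripotency markers were all below 0, with a median of -0.69, and summed to 15.4 implied CPM in induced and 25.4 implied CPM in control cells; of them Dppa5a passed in the authors' deposited table.

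The classical cadherins moved in both directions. Of the 3 type I genes listed at D5, Cdh4 (R-cadherin, first described in the retina) was higher, with 36.9 implied CPM in induced cells and 27.2 implied CPM in control cells. Its log2 fold change in the authors' deposited table was 0.44 (adjusted p = 0.0267, implied SE 0.13). Cdh2 (N-cadherin), the main adherens junction cadherin of neural progenitors, had 538 implied CPM in induced and 646 implied CPM in control cells. Its log2 fold change of -0.26 in the authors' deposited table did not pass (adjusted p = 0.157, unadjusted p = 0.00995). Cdh3 (P-cadherin), an epithelial and placental cadherin, had 1.70 implied CPM in induced and 2.68 implied CPM in control cells and did not pass either (log2 fold change -0.65, adjusted p = 0.186 in the authors' deposited table). The epithelial genes Cdh1 and Epcam, which are not in the set, were lower and passed (-0.48 and -0.58 on the log2 scale in the authors' deposited table). The 3 listed markers of surface epithelium summed to 53.4 implied CPM in induced and 75.1 implied CPM in control cells, and their part in the value of Cdh3 was not tested. Of these sums Cdh1 held 43.3 implied CPM in induced and 60.4 in control cells. Trp63 had 0.948 implied CPM in induced and 1.14 in control cells and did not pass, and Krt5 was not listed at D5.

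Among type II cadherins, 1 of the 7 listed genes was higher at D5 and 2 were lower. Cdh6 (K-cadherin), which marks limited parts of the developing brain and kidney, had 30.8 implied CPM in induced cells and 46.8 implied CPM in control cells. The authors' deposited table gave it a log2 fold change of -0.60 (adjusted p = 0.00550, implied SE 0.16). Cdh7 and Cdh20 lie on chromosome 1 with 21 protein-coding genes between them in RefSeq and moved apart. Cdh20 had 2.18 implied CPM in induced and 1.10 implied CPM in control cells, a log2 fold change of 0.99 as listed in the authors' deposited table (adjusted p = 0.0486, implied SE 0.32). Cdh7 had 1.16 implied CPM in induced and 2.14 implied CPM in control cells, a log2 fold change of -0.89 as listed in the authors' deposited table (adjusted p = 0.0434, implied SE 0.29). The 4 type II genes that did not pass were Cdh10 at 0.14, Cdh11 (a cadherin of mesenchyme and bone) at 0.14, Cdh24 at 0.12 and Cdh22 at -0.25 in the authors' deposited table. The GPI-anchored Cdh13 (T-cadherin), which has no cytoplasmic tail, did not pass, at 0.13 in the authors' deposited table.

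Promoter sequences are shown for the largest called fall and the largest called rise, Pcdh10 and Cdh20, so that the letters bound by GLI proteins can be looked for in them. They come from RefSeq (build GRCm38.p6), run 5′ to 3′ on the plus strand from 250 bases before to 50 bases after the annotated start, and lie at chr3:45378148-45378447 (Pcdh10) and chr1:104768270-104768569 (Cdh20). Capitals mark the only match in either window to the core ACCACCC, which lies on the opposite strand and so reads GGGTGGT.
Pcdh10: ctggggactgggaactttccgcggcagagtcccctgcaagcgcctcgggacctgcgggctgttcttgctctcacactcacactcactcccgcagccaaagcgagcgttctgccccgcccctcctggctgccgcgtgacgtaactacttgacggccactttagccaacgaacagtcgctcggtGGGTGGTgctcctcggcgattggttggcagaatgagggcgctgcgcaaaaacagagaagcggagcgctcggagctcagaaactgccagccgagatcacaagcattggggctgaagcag
Cdh20: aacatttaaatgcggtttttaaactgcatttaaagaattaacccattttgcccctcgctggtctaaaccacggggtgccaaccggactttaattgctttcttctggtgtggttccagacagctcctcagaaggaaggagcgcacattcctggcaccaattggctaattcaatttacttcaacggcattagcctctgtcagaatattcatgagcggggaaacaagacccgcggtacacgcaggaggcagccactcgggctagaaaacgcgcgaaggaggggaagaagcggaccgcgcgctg
The GLI consensus letters GACCACCCA were found on neither strand in any of the 31 promoters given for 28 of the 36 genes, and in 0.253% of all 32851 promoters of that length. The shorter core ACCACCC, which overlaps the consensus, was present in 1 of the 31, that of Pcdh10, and in 4.61% of all promoters. The Pcdh10 and Cdh20 windows hold 24 and 18 CpG pairs, beside a median of 7 over all promoters and 18 over those of the set. These matches describe letters in a short window and say nothing of binding elsewhere.

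The giant cadherins leaned upward by small amounts. Celsr1, the planar polarity cadherin of the neural tube and inner ear, had 91.7 implied CPM in induced and 70.3 implied CPM in control cells at D5. Its log2 fold change in the authors' deposited table was 0.38 (adjusted p = 0.0134, implied SE 0.11). Celsr2 had 302 implied CPM in induced and 239 implied CPM in control cells (log2 fold change 0.34, adjusted p = 0.0427 in the authors' deposited table). Fat4, the receptor for the ligand Dchs1 in mammals, had 160 implied CPM in induced and 125 implied CPM in control cells (log2 fold change 0.35, adjusted p = 0.0440 in the authors' deposited table). Celsr3, needed for axon tracts, stood at 0.30 and did not pass (adjusted p = 0.124 in the authors' deposited table). Dchs1 at 0.22, Fat1 at 0.22 and Fat3 at 0.11 did not pass in the authors' deposited table. All 7 listed Celsr, Fat and Dachsous genes were above 0, with a median of 0.30, beside 50.5% of all genes above 0 (7635 of 15108).

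**Figure D2:**
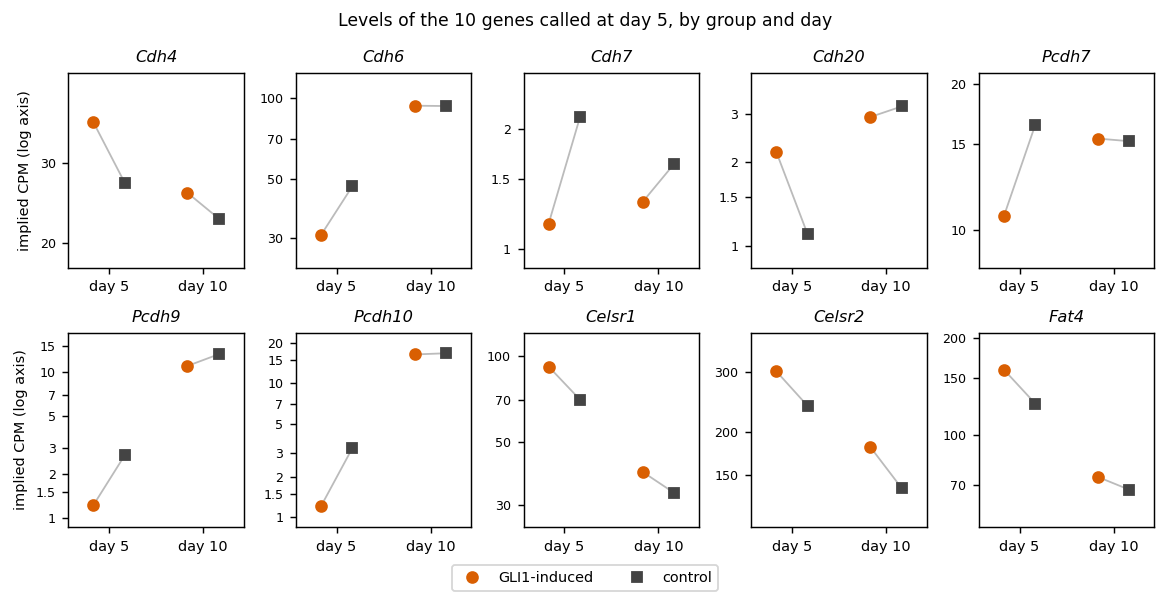
Implied CPM (log axis, a scale of its own in each panel) of the 10 genes called at D5, in GLI1-induced (orange circles) and control cultures (grey squares) at D5 and D10. The levels differ most in ratio at D5 for Pcdh10 (1.21 and 3.29), and at D10 those of Cdh6, Pcdh7 and Pcdh10 nearly coincide; the points carry no spread over samples.

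The length of the giant genes moved with this upward lean. All 7 have over 10 kb of exon in the GENCODE annotation, and among the 448 genes of that length in the authors' deposited table for D5, 67.6% were above 0, with a median log2 fold change of 0.055. At 2 to 4 kb the median was -0.011 and 46.2% were above 0. At D10 the corresponding values were 0.089 and 82.2% for the 472 genes over 10 kb, and -0.0066 and 46.9% for genes of 2 to 4 kb. After centring on genes of like length, chosen after seeing the data, which reused the p-values and fold changes of the authors' deposited table, Celsr1 (0.33, adjusted p = 0.0519), Celsr2 (0.28, adjusted p = 0.135) and Fat4 (0.29, adjusted p = 0.134) no longer passed at D5, while Cdh4, Cdh20 and the 5 lower genes did. The 4 protocadherins over 10 kb (Pcdh7, Pcdh10, Pcdh17 and Pcdh19) were all below 0 at D5. With z both centred and rescaled, also added after seeing the data, Celsr1, Celsr2 and Fat4 were among 9 genes that passed at D5, beside 5.91% of all genes with a length. Rescaling, described below, enlarges z at their levels. Without centring, it divided z at D5 by 0.769 for Celsr1, 0.580 for Celsr2 and 0.613 for Fat4.

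**Figure D3:**
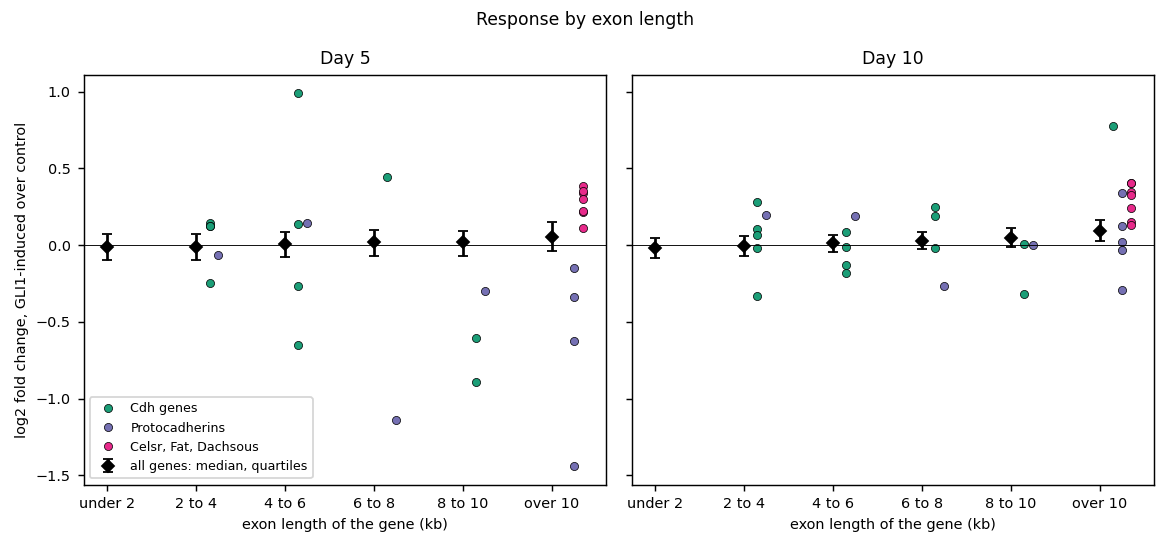
Log2 fold change (GLI1-induced over control) by exon length of the gene at D5 and D10. Black diamonds are the median of all genes in a length class with its quartiles, and coloured points are single cadherin superfamily genes; in the class over 10 kb the Celsr, Fat and Dachsous genes lie above 0 on both days and above the all-gene median of 0.055 at D5 and 0.089 at D10.

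Several of the called genes stood at low levels. Pcdh10, Pcdh9, Cdh7 and Cdh20 had the lowest average CPM per kb of exon of the 26 genes at D5, from 0.142 for Pcdh10 to 0.409 for Cdh20. Cdh2 had the highest at 119.6, followed by Celsr2 at 25.5, Fat1 at 23.7 and Pcdh8 at 21.9 CPM per kb. Without values per library it cannot be said which neighbours in this order differ beyond their spread. When z was rescaled so that its typical size is the same at every level, 10 genes passed again at D5, beside 5.12% of all genes. Cdh7 (adjusted p = 0.242) and Cdh20 (adjusted p = 0.163) were lost when p-values of the authors' deposited table were rescaled so, and Cdh2 (adjusted p = 7.10e-05, lower) and Celsr3 (adjusted p = 0.0379, higher) were gained. Here z was divided by 0.532 for Cdh2 and 0.862 for Celsr3, which enlarged it, and by 1.35 for Cdh7 and 1.22 for Cdh20.

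**Figure D4:**
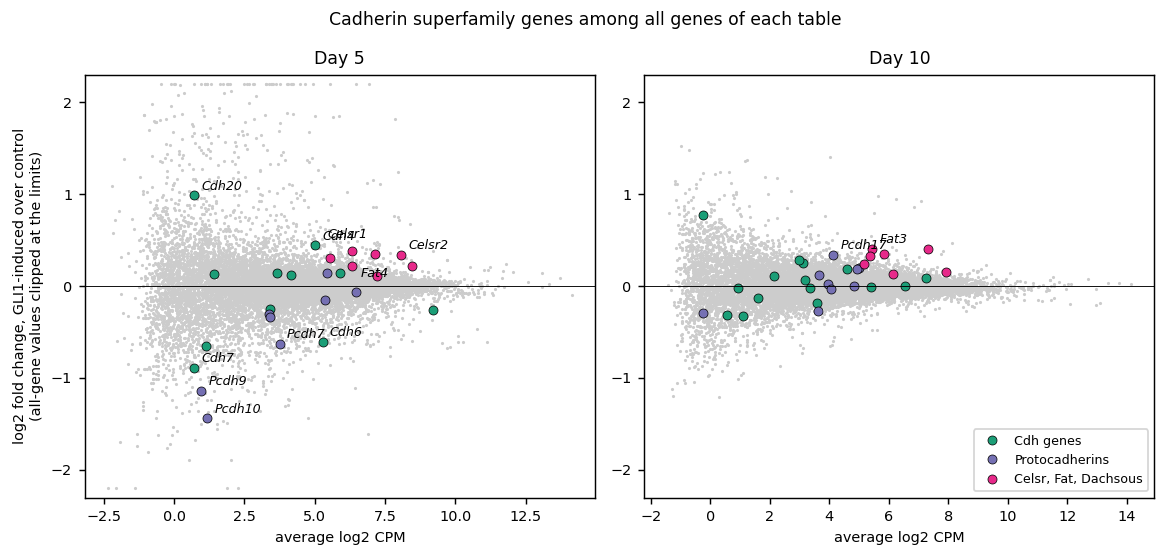
Log2 fold change (GLI1-induced over control) against average log2 CPM for all genes (grey) and the listed cadherin superfamily genes (coloured) at D5 and D10. Named are the genes that passed an adjusted p under 0.05 at D5 and those with an unadjusted p under 0.05 at D10 (Pcdh17 and Fat3); the D5 falls of Pcdh9 and Pcdh10 stand at the low end of the level axis.

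The second comparison asks what was left of these changes 5 days after washout. None of the 31 genes listed at D10 passed an adjusted p under 0.05 in the authors' deposited table, in which 13 of 15744 genes (0.0826%) did. At an unadjusted p under 0.05 there were 2 of the 31 (6.45%), beside 1.53% of all genes, and both leaned upward. Pcdh17, a delta-2 protocadherin of axons and presynaptic sites, had 19.6 implied CPM in induced and 15.5 implied CPM in control cells (log2 fold change 0.34, adjusted p = 1 in the authors' deposited table, implied SE 0.17). Fat3, a giant cadherin that shapes neuronal dendrites in the retina, had 49.2 implied CPM in induced and 37.2 implied CPM in control cells (log2 fold change 0.40, adjusted p = 1 in the authors' deposited table, implied SE 0.20).

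Genes called at D5 were picked for a large fold change there, so a smaller one at D10 is no result by itself; of the 26 genes listed on both days, 69.2% lay closer to 0 at D10, as did 61.0% of all such genes. At D10 the authors' deposited table gave Pcdh10 a log2 fold change of -0.030, Pcdh7 of 0.018, Cdh6 of 0.0041 and Cdh20 of -0.13. Pcdh9 stood at -0.27 and Cdh7 at -0.32 in the authors' deposited table for D10, both still below 0. Celsr1 was at 0.24, Celsr2 at 0.40, Cdh4 at 0.19 and Fat4 at 0.13 in that authors' deposited table. The other giant genes were also above 0 in the authors' deposited table for D10, with Celsr3 at 0.35, Dchs1 at 0.33 and Fat1 at 0.15. The median over the 7 giant genes was 0.33. Neural progenitor markers leaned the same way at D10: all 6 were above 0, with a median of 0.18, and summed to 606 implied CPM in induced and 513 implied CPM in control cells. Nes among them stood at 0.35 in the authors' deposited table (unadjusted p = 0.0250), and the part of these markers in the giant genes' values was not tested. At D5 the 6 progenitor markers had a median of 0.017, and 4 of them were above 0. They summed there to 1185 implied CPM in induced and 1161 implied CPM in control cells. With z from the authors' deposited table rescaled, Celsr2 (adjusted p = 0.0474), Celsr3 (0.0427) and Fat3 (0.0360) passed at D10, beside 0.756% of all genes. Rescaling enlarged z at every level at D10, where it was divided by 0.433 to 0.922. Before it, the unadjusted p in the authors' deposited table was 0.0667 for Celsr2, 0.0907 for Celsr3 and 0.0472 for Fat3. With z both centred on genes of like length and rescaled, a setting added after seeing the data, 0 of the 31 passed, beside 0.839% of all genes with a length.

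Genes listed at D10 only did not pass. For the tip-link cadherins of inner ear hair cells, the authors' deposited table gave 0.77 for Cdh23 and -0.29 for Pcdh15, and the implied SEs were 0.44 and 0.40. They had the lowest levels of the set, 0.0759 and 0.0524 CPM per kb of exon. Among type II cadherins, the authors' deposited table put Cdh8 at 0.25, Cdh18 at -0.33 and Cdh12 at -0.018. Of the remaining genes, Pcdh8 at 0.20, Pcdh18 at 0.19, Pcdh19 at 0.12 and Cdh24 at 0.28 were above 0 in that authors' deposited table, as were Cdh10 at 0.10, Cdh2 at 0.084 and Cdh13 at 0.063. Cdh3 at -0.18, Cdh22 at -0.020, Cdh11 at -0.013 and Pcdh1 at -0.0017 were below 0 in the authors' deposited table.

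The third comparison asks whether a response differed between the days. Of the 26 genes in both tables, 1 differed in a test of the difference computed here from the implied SEs, beside 183 of 14792 genes (1.24%). This was Pcdh10, whose log2 fold change was 1.41 higher at D10 than at D5 (computed from the authors' deposited tables, SE 0.40, adjusted p = 0.0321). Cdh6 (0.61 higher at D10, adjusted p = 0.220), Cdh20 (-1.12, adjusted p = 0.294), Pcdh9 (0.87, adjusted p = 0.460), Pcdh7 (0.64, adjusted p = 0.463) and Pcdh17 (0.49, adjusted p = 0.533) did not pass in this test on the authors' deposited tables. With rescaled z, Cdh2, Cdh6 and Pcdh17 joined Pcdh10, which makes 4 of 26, beside 2.44% of all genes. The log2 fold changes of the 26 genes at D5 and D10 had a Pearson r of 0.55 and a Spearman rho of 0.55, beside 0.17 and 0.21 over all 14792 genes. The days share no libraries, but genes are not independent replicates, and the length of the giant genes moves with both days.

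Levels in the cultures can be set side by side between the days. The tables were normalized separately and the levels carry no spread, so these are values with no test, and they share the control samples with the comparisons above. In control cultures Cdh2 had 146 implied CPM at D10 and 646 implied CPM at D5, a log2 difference of -2.14. Fat3 (-1.93), Pcdh8 (-1.58), Cdh10 (-1.50), Pcdh17 (-1.47), Cdh24 (-1.27) and Celsr1 (-1.08) were also lower in D10 controls than in D5 controls. Pcdh10 had 16.8 implied CPM in D10 controls and 3.29 implied CPM in D5 controls, a log2 difference of 2.35. Pcdh9 (2.31), Cdh3 (2.24), Cdh13 (1.80), Cdh20 (1.54), Pcdh1 (1.29) and Cdh6 (0.99) were higher in D10 controls. Over the set, 9 genes were higher and 17 lower in D10 controls, with a median of -0.40, beside a median of 0.013 over all genes in both tables. Summed cell type markers of the control cultures also differed between the days, which does not tell cell numbers from RNA per cell. Their neural progenitor markers summed to 513 implied CPM at D10 and 1161 implied CPM at D5, and their neuron markers to 1596 implied CPM at D10 and 706 implied CPM at D5. Among the progenitor markers only Fabp7 went the other way, with 168 implied CPM in D10 controls and 103 in D5 controls. Endoderm markers summed to 1351 implied CPM in D10 controls and 401 implied CPM in D5 controls, and mesenchyme markers to 293 implied CPM in D10 controls and 120 implied CPM in D5 controls. In D10 controls Krt8 (486 implied CPM) and Krt18 (529) made up most of the endoderm sum, and Pdgfra (249) most of the mesenchyme sum. Among these markers only Twist1 went the other way, with 6.12 implied CPM in D10 controls and 11.3 in D5 controls. The part of the marked cell types in the control levels was not tested. In induced cultures the log2 difference between D10 and D5 was 3.76 for Pcdh10, 3.18 for Pcdh9, 1.60 for Cdh6 and 0.42 for Cdh20.

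The counts for partners of the cadherins stand beside 4.44% of all genes called at D5. Of the 20 catenins and adherens junction partners listed at D5, the authors' deposited table had 0 past the threshold and 2 at an unadjusted p under 0.05. Their median was 0.0064. Ctnna2, the neuronal alpha-catenin, stood at 0.32 (adjusted p = 0.144) and Jup, plakoglobin, at -0.53 (adjusted p = 0.217) in the authors' deposited table. The authors' deposited table put the beta-catenin gene Ctnnb1 at 0.078 and the p120-catenin gene Ctnnd1 at -0.0011. Of the 22 planar polarity and Fat/Dachsous partners, 1 was higher and 0 lower at D5 by the authors' deposited table. Their median was 0.050. The higher gene was Ankrd6 (diversin), which had 66.2 implied CPM in induced and 44.9 implied CPM in control cells (log2 fold change 0.56, adjusted p = 3.72e-07 in the authors' deposited table). The authors' deposited table put the core polarity gene Vangl2 at 0.043 and Fjx1, the four-jointed homologue, at 0.075. Of 20 listed regulators and proteases of cadherins, 0 passed, while Snai1 (0.77, adjusted p = 0.176) and Zeb1 (0.23, adjusted p = 0.183), both repressors of Cdh1, and the presenilin gene Psen2 (-0.50, adjusted p = 0.267) had an unadjusted p under 0.05 in the authors' deposited table. At D10, 0 of 21, 0 of 22 and 0 of 20 genes of these lists passed in the authors' deposited table, beside 0.0826% of all genes.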

How the data were processed

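Polyadenylated RNA from 14 libraries was compared by the authors, GLI1 OE against control, at D5 and D10. Per the file headers, the authors deposited 4 values per Entrez identifier, namely logFC, logCPM, PValue and FDR. The deposited average is in log2 units, since its powers of 2 sum to 1001540 at D5 and 1001340 at D10, and the fold change was taken as log2 too. For aligner, counting, test and build: not given in the sources used here. Reads were stranded per the labels' protocols, but how strand was counted is not stated, and exons of 7 of the 31 genes overlap an antisense gene in GENCODE M21, Pcdh10 and Fat4 among them. Adjusting the deposited p-values by Benjamini-Hochberg gave the deposited FDR to within 2.72e-06 at D5 and 3.41e-05 at D10.

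Symbols came from the RefSeq gene table (GRCm38.p6), which matched 94.6% of identifiers on either day. A signed z and an implied SE (size of the log2 fold change over size of z) were computed from each p-value, and intervals are 1.96 SEs wide on each side. Calls need an adjusted p under 0.05 over all genes. Implied CPM split the average so that the mean of both groups on the linear scale equals it. The day difference was divided by the root of the summed squared SEs and tested two-sided, and p was adjusted by Benjamini-Hochberg over 14792 genes. It is approximate, and 227 genes at D5 and 288 at D10 without a finite SE were entered as no difference in it. Rescaling divided z by its typical size, relative to that of a standard normal, within bins of about 500 genes of like level. The divisors ran from 0.532 to 1.35 at D5 and from 0.433 to 0.922 at D10, and those under 1 enlarge z. Exon length is the union of exons in the GENCODE basic set, which 87.7% of D5 and 87.8% of D10 genes have, with all 31 genes of the set. The implied SE, day difference, Benjamini-Hochberg and rescaling steps were run on simulated normal values (Python 3.11.15, scipy 1.17.1). These were drawn with the implied SEs, so the simulation does not test whether those SEs are right. It did not cover the other steps.

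The members and lists were chosen with earlier results of these data known. Named with values were all genes of the set, every called partner gene and, after their values were seen, Ctnna2, Jup, Ctnnb1, Ctnnd1, Vangl2, Fjx1, Snai1, Zeb1, Psen2, Pcdhb15 and Pcdhb22. Protein features were not analysed here.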

Additional observations from a re-analysis of the deposited data

Results flagged for a closer look

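Pcdh10 drew attention because its response differed between the days. Its log2 fold change was -1.44 at D5 and -0.030 at D10 in the authors' deposited tables, and the test of the difference computed here gave an adjusted p of 0.0321. Its level in control cultures was 16.8 implied CPM at D10 and 3.29 implied CPM at D5. A 154-base stretch of its exons overlaps an antisense gene. The part of these in the difference was not tested.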

How the results depend on the processing

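Settings covered other thresholds, Holm's adjustment, a fold minimum, a level minimum, rescaled z and centring. The 10 calls at D5 (5 higher, 5 lower) became 4 (0 higher, 4 lower) at an adjusted p under 0.01, 1 (0 higher, Pcdh10 lower) with Holm's adjustment and 2 (0 higher, 2 lower) with a 2-fold minimum. At an average log2 CPM of at least 1 there were 7 calls, 3 of them lower, and after centring on like exon length 7, 2 of them higher. The other counts at D5 stayed within 1.5 times. The 0 calls at D10 became 3, all higher, with rescaled z alone and stayed 0 in the other settings. The 1 gene that differed between days became 0 at 0.01, 0 with Holm's adjustment and 4 with rescaled z. With centring on like length, rescaled or not, the D10 values of Cdh6 and Pcdh7 turned to -0.045 and -0.071, neither called. The level of Pcdh10 per kb of its longest transcript was 0.273 at D5 and 2.02 at D10, in place of 0.142 and 1.04 CPM per kb of exon. Summed over the settings at D5 and D10, calls of single genes were lost 33 times, 3 of them for genes under the level minimum, and gained 6 times. Causes were not tested, beyond what each setting builds in. Depth is unknown, and leaving out replicates was not run. No paired analysis was possible because the tables hold no values per library.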

Other observations

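The clustered protocadherins, which give single neurons an identity code, were listed as 57 genes on both days. None passed in the authors' deposited table at D5 or D10. At an unadjusted p under 0.05 there were 2 at D5, Pcdhb15 (0.78) and Pcdhb22 (0.30), and 0 at D10 in the authors' deposited tables. All 22 Pcdhg rows were above 0, with log2 fold changes between 0.16 and 0.18 at D5 and between 0.053 and 0.095 at D10 in the authors' deposited tables. Their average log2 CPM lay between 7.14 and 7.81 at D5. Transcripts of this cluster share their 3′ exons, so reads may have been counted for several genes at once, and these rows are uncertain and not separate measurements. The 14 Pcdha rows had medians of -0.0059 at D5 and 0.20 at D10, and the 21 Pcdhb rows of 0.11 and 0.15, in the authors' deposited tables. The Pcdha rows were nearly alike too, with log2 fold changes between -0.068 and 0.025 at D5 and between 0.15 and 0.22 at D10. They may likewise not be separate measurements.

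Outside the clusters, 2 of 7 other listed relatives changed at D5, both upward, beside 4.44% of all genes changed and 2.34% higher. Clstn2, a calsyntenin of synapses, had 20.5 implied CPM in induced and 6.35 implied CPM in control cells (log2 fold change 1.69, adjusted p = 1.01e-19 in the authors' deposited table). Ret, the receptor tyrosine kinase for GDNF family ligands, which carries cadherin-like repeats, had 20.1 implied CPM in induced and 7.47 implied CPM in control cells (log2 fold change 1.43, adjusted p = 7.10e-18 in the authors' deposited table). Neither passed at D10, where the authors' deposited table put Clstn2 at 0.17 and Ret at 0.19.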
